A study of Rattus norvegicus with 6 samples.

Results

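The small heat shock proteins are chaperones that hold unfolding proteins in a soluble state without using ATP, and Bag3 is the co-chaperone that links some of them to Hsp70. In the deposited gene table of rat toe flexor muscle, 8 genes of this group were followed: Hspb1, Hspb2, Hspb3, Hspb6, Hspb7, Hspb8, Cryab and Bag3. Each was found as the row whose gene name equals the symbol, 1 row per gene, so the group is 8 of the 30957 genes in the table. All 8 passed the filter on low counts, with 12873 genes passing in all.

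Muscle carries more kinds of small heat shock protein than most tissues. They share the alpha-crystallin domain, assemble into oligomers and bind the Z-disc, desmin and actin filaments when fibres are strained or heated. Bag3 binds Hspb8 and Hspb6 through short motifs in its middle part and Hsp70 through its BAG domain. The complex passes damaged filamin C and other Z-disc proteins to the ubiquitin ligase CHIP (the Stub1 gene) and on to autophagosomes. Heat shock factor 1, the transcription factor of the heat shock response, binds repeats of the letters GAA and their complement in the promoters of its targets.

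RNA came from the flexor digitorum longus, which bends the toes, of wild-type Sprague-Dawley rats. Acute osteofascial compartment syndrome (ACS), a rise of pressure inside a closed muscle compartment, was produced by a low-elastic band tied over the skin at the knee, and 3 libraries were made at 18 h. The other 3 libraries, titled Control, were taken at 0 h. Ages are not given in the labels. The treatment field reads ACS for all 6, so the groups rest on the titles, and control muscle at 18 h was not analysed here. The labels do not say that libraries of 1 group are separate rats, so the p-values speak only of how far these samples spread, and that spread may be technical. Bulk muscle was sequenced, so fewer cells of a type and less RNA per cell cannot be told apart.

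The libraries held 14340865 to 21003928 counts. Genes of the mitochondrial chromosome took 43.4% of the counts in ACS replicate 1 and 4.82% to 8.60% in the other 5 libraries, so that ACS replicate 1 stood apart. The skeletal muscle list had 9 of 10 markers in the table, led by Acta1, the actin of the thin filament, at 44007 ± 9636 counts scaled to a common library size (CPM; SD, n = 3) in control and 37372 ± 18534 CPM in ACS muscle (edgeR adjusted p = 0.825). CPM here are scaled by edgeR's TMM factors, and tests are edgeR's quasi-likelihood test with Benjamini-Hochberg adjustment over all 12873 genes and a threshold of 0.05.

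Promoter letters are shown first because 4 of the members share a stretch there. RefSeq promoters on the rat build GRCr8 were matched for 6 of the 8 members, all but Hspb2 and Cryab, and the 250 bases before each start were searched on both strands. The motifs were GAANNTTC and TTCNNGAA, the head-to-head and tail-to-tail pairs of the GAA repeat. They do not depend on the strand, and the pair can overlap in a longer repeat. GAANNTTC was found in 4 of 6 member windows, against 7.23% of 33465 promoters of the same length. TTCNNGAA was found in 1 of 6, against 7.48%. The stretches follow 5′ to 3′ on the gene's strand, with the matching letters in capitals.
Bag3, chr1:192533317-192533346, plus strand: ggatgggaccaGAAGTTTCtagccggccag
Hspb8, chr12:45837274-45837303, plus strand: agaagccaggaGAAGTTTCtaggcgcgtga
Hspb1, chr12:26432412-26432441, minus strand: cttcaactagaGAAGTTTCcagatgggggc
Hspb1, chr12:26432392-26432421, minus strand: agatgggggcaGAACCTTCctggccctgcc
Hspb6, chr1:94934212-94934241, plus strand: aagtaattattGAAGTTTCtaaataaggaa
Hspb6, chr1:94934122-94934151, plus strand: ttagcttccccTTCTAGAAatggaaaaagg

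The same letters, GAAGTTTC, stood in all 4 of these windows. They ended 124 bases before the start of Bag3, 15 before Hspb8, 121 before Hspb1 and 141 before Hspb6. GAAGTTTC or its complement GAAACTTC occurred in 1.22% of the 33465 promoters, a search added after the windows had been seen. The Hspb8 window lies inside the gene as RefSeq annotates it. The windows of Hspb3 and Hspb7 held neither motif, which says only that these letters are not there. A match is a description of the sequence and no binding was measured. The whole windows of Bag3, the member that passed the test, and of Hspb7, which was high in the same library without a match, are given for comparison.
Bag3, chr1:192533210-192533459, plus strand: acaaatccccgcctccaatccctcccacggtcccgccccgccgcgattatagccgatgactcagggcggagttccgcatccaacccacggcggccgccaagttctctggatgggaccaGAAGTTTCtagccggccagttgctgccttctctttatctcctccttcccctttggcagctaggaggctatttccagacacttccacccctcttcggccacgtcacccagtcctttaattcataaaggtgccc
Hspb7, chr5:159010509-159010758, plus strand: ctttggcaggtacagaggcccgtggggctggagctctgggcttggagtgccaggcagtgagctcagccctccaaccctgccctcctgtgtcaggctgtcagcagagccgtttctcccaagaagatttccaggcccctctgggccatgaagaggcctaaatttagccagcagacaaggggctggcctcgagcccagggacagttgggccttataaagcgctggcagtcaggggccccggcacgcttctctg

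The comparison asked how transcripts of the small heat shock family and Bag3 differ between muscle at 18 h of ACS and control muscle. Bag3 rose 4.62-fold. Hspb8, its partner, had a fitted ratio of 3.99 and was higher in every ACS library, but missed the threshold. Hspb7, Hspb1, Cryab and Hspb6 had fitted ratios from 1.56 to 3.19 with overlapping groups, and Hspb2 and Hspb3 had ratios below 1 with overlapping groups. In 6 of the 8 genes the highest value lay in ACS replicate 2 and exceeded every other library by a wide margin.

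By edgeR 1 of the 8 members was higher at an adjusted p under 0.05, where 3.43% of all tested genes were, and 0 of 8 were lower, where 0.707% were. An unadjusted p under 0.05 was reached by 3 of the 8, against 23.5% of all genes. Every ACS library lay above every control library for 2 of 8, against 16.7% of all genes, and below for 0 of 8, against 14.8%. The median log2 fold change of the 8 was 0.93, against -0.01 over all genes tested. Without ACS replicate 2 these medians were 0.21 and -0.05. Scaling by library totals shifted the median of all genes to -0.32, and all 8 members kept their direction.

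**Figure D1:**
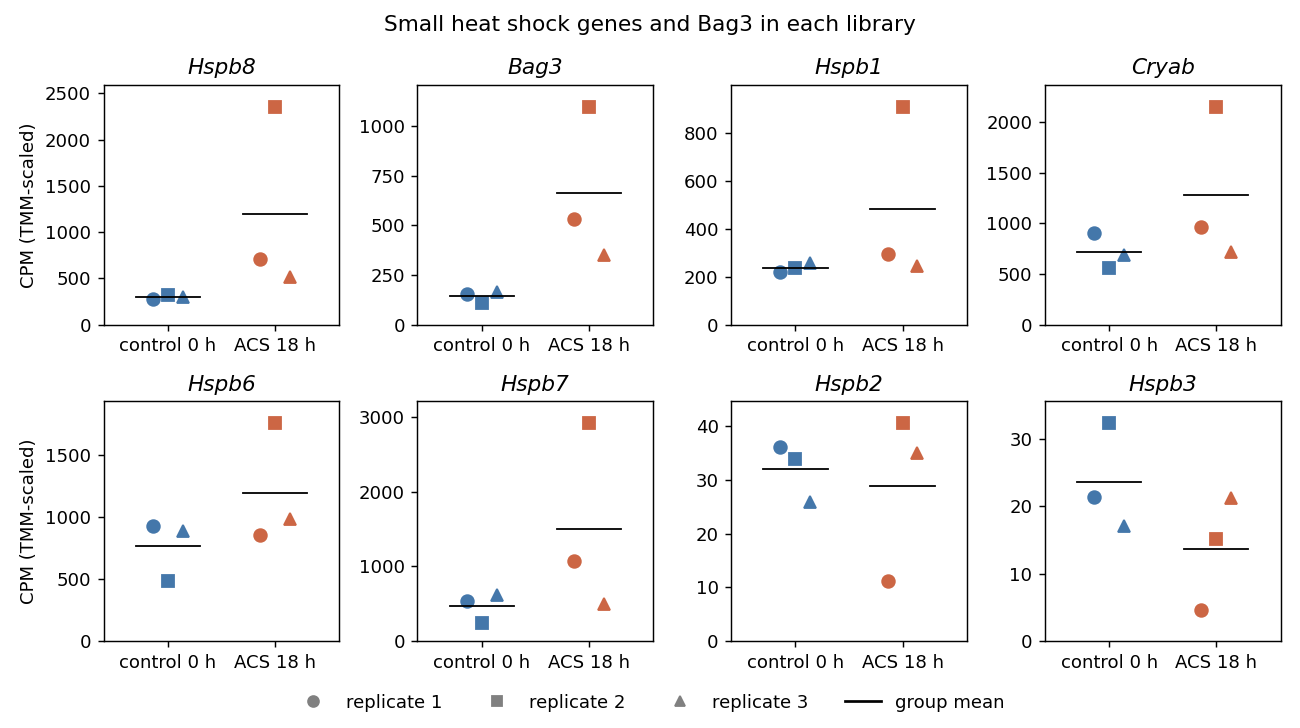
TMM-scaled CPM (vertical axis, linear, from 0) of each gene in the 3 control and 3 ACS libraries. Marker shapes give the replicate number, which the labels do not say pairs libraries, and bars are group means. ACS replicate 2 is the highest library for every gene except Hspb3, and only Bag3 and Hspb8 have all ACS libraries above all controls.

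Bag3 (ENSRNOG00000020298, chromosome 1, 199941161 to 199965191, plus strand, build Rnor 6.0) was measured at 157, 107 and 165 CPM in control replicates 1, 2 and 3. The ACS replicates 1, 2 and 3 held 532, 1097 and 353 CPM. The lowest ACS library was 2.14 times the highest control, and the groups did not overlap. Group means were 143 ± 31.0 and 660.3 ± 388 CPM (SD, n = 3 each). On the log2 scale the difference was 2.21 (SE 0.454, edgeR adjusted p = 0.0390, 95% interval of the fold 2.25 to 9.46). The two-sided exact permutation test gave p = 0.1, the smallest that 3 libraries against 3 allow. Without ACS replicate 2 the log2 fold change was 1.59 (edgeR adjusted p = 0.0596), past the threshold no longer. Without any 1 control library it stayed between 1.98 and 2.27 and did not pass (edgeR adjusted p = 0.190, 0.191 and 0.141), as no gene of the whole table did. One control and 1 ACS library (replicate 3 of each) carry the letters ji in their description. With a term for these the log2 fold change was 2.13 (edgeR adjusted p = 0.0701), and without them 2.62 (adjusted p = 0.0675), while the ji libraries alone differed by the 2.14 times given above. Bag3 also missed the threshold with library totals (1.93, adjusted p = 0.0603) and with limma on log2(FPKM + 1) (1.73, adjusted p = 0.0755).

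Hspb8 (ENSRNOG00000022392, chromosome 12, 45905371 to 45920013, plus strand) encodes the small heat shock protein that Bag3 holds in the filamin-clearing complex. Its control libraries lay close together at 281, 316 and 299 CPM. The ACS libraries were at 709, 2355 and 513 CPM, all above the controls, with ACS replicate 2 at 7.45 times the highest control and the others at 2.24 and 1.62 times. The log2 fold change was 2.00 (SE 0.562, edgeR adjusted p = 0.0777, 95% interval of the fold 1.64 to 9.69). Leaving out ACS replicate 1 or 3 moved it to 2.26 and 2.36 and past the threshold (edgeR adjusted p = 0.0360 and 0.0277), while leaving out ACS replicate 2 gave 0.99 (adjusted p = 0.132).

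Hspb1 (ENSRNOG00000023546, chromosome 12, 23839399 to 23841049, minus strand) is the actin-guarding chaperone also called Hsp27, phosphorylated downstream of p38 kinase. It was at 219, 236 and 256 CPM in control and at 296, 909 and 243 CPM in ACS muscle. Only ACS replicate 2 left the control range by a wide margin, and ACS replicate 3 lay inside it. The log2 fold change of 1.03 (SE 0.494, edgeR adjusted p = 0.248) fell to 0.15 without ACS replicate 2 (adjusted p = 0.798).

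Cryab (ENSRNOG00000010524, chromosome 8, 55178289 to 55182545, plus strand), the alpha-B-crystallin that guards desmin and titin, was at 902, 555 and 684 CPM in control. In ACS muscle it was at 960.5, 2149 and 716 CPM, so ACS replicate 3 sat within the controls. The log2 fold change was 0.84 (SE 0.457, edgeR adjusted p = 0.303), or 0.19 without ACS replicate 2. Hspb6 (ENSRNOG00000020922, chromosome 1, 89008117 to 89010256, plus strand), known as Hsp20 and phosphorylated by protein kinase A, was at 927, 488 and 892 CPM in control and at 856, 1758 and 984 CPM in ACS muscle. Its groups overlapped too, with ACS replicate 1 below the highest control (log2 fold change 0.64, SE 0.408, edgeR adjusted p = 0.377; 0.22 without ACS replicate 2).

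Hspb7 (ENSRNOG00000029079, chromosome 5, 159967839 to 159971562, plus strand), a small heat shock protein of heart and skeletal muscle that binds filamin C, was at 539, 251 and 617 CPM in control. The ACS libraries were at 1071, 2914 and 500.2 CPM. ACS replicates 1 and 2 lay above every control and replicate 3 did not. The log2 fold change was 1.67 (SE 0.642, edgeR adjusted p = 0.162), or 0.70 without ACS replicate 2 and 2.08 without replicate 3 (adjusted p = 0.0486).

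Hspb2 and Hspb3, which bind each other in differentiated muscle, showed another order of the libraries. Hspb2 (ENSRNOG00000010402, chromosome 8, 55176847 to 55177818, minus strand), a binding partner of the myotonic dystrophy kinase, was at 36.1, 33.8 and 25.9 CPM in control and 11.1, 40.5 and 35.0 CPM in ACS muscle. ACS replicate 1 was the lowest of all 6 libraries, and the other ACS libraries lay in or near the control range. The log2 fold change was -0.14 (SE 0.436, edgeR adjusted p = 0.869, 95% interval -1.13 to 0.85) and turned to 0.24 without ACS replicate 1.

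Hspb3 (ENSRNOG00000010992, chromosome 2, 45517789 to 45518502, minus strand) was at 21.4, 32.3 and 17.1 CPM in control and 4.68, 15.2 and 21.3 CPM in ACS muscle. Here ACS replicate 1 was again the lowest, with 50 counts, and ACS replicate 3 stood inside the control range. The log2 fold change was -0.77 (SE 0.502, edgeR adjusted p = 0.386, 95% interval -1.92 to 0.37). None of the 8 members overlaps another gene in the coordinates of the table.

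**Figure D2:**
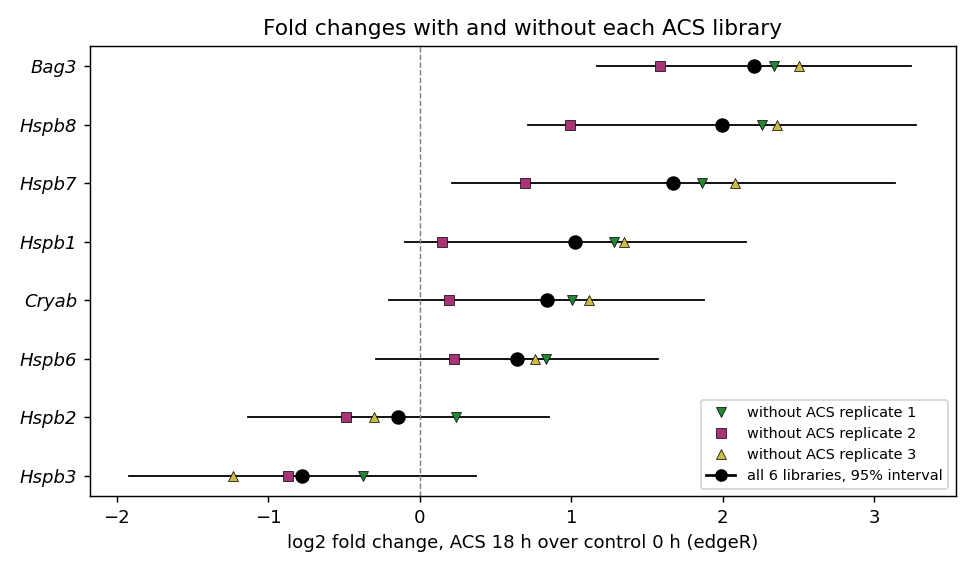
Log2 fold change of ACS over control (horizontal axis) for each gene with all 6 libraries and its 95% interval (black), and the refitted value without each ACS library in turn (coloured). Leaving out ACS replicate 2 lowers all 8 values, from 2.21 to 1.59 for Bag3 and from 1.03 to 0.15 for Hspb1.

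Of the 8 genes, 2 passed without ACS replicate 1 (Bag3 and Hspb8), where 4.99% of all genes were called higher. None passed without ACS replicate 2, where 2.14% were. Without ACS replicate 3 Bag3, Hspb8 and Hspb7 passed, against 9.72% of all genes. DESeq2's Wald test called the same 3 genes with all libraries (adjusted p = 5.21e-05 for Bag3, 0.00378 for Hspb8 and 0.0479 for Hspb7), where it called 8.72% of all genes higher.

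Levels between genes were compared as FPKM, the authors' values per gene length and library total. In control muscle Hspb6 (658 ± 208 FPKM) and Cryab (639 ± 145 FPKM) stood highest, and they did not differ beyond their spread. Hspb1 (302 ± 32.0 FPKM), Hspb7 (262 ± 111 FPKM) and Hspb8 (189 ± 14.4 FPKM) followed, with Hspb7 overlapping both neighbours. Bag3 (66.1 ± 14.8 FPKM) and Hspb2 (65.0 ± 9.30 FPKM) were alike within their spread, and Hspb3 was lowest at 37.0 ± 12.1 FPKM. In the order of all 30957 genes by control FPKM, Hspb6 ranked 80 and Cryab 82.

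The 8 genes summed to 2469, 1725 and 2462 FPKM in the control libraries and 2190.4, 7448 and 2253 FPKM in the ACS libraries. On this scale ACS replicate 2 lay above the control range and the other ACS libraries within it. In TMM-scaled CPM the sums were 3084, 2018 and 2957 in control and 4439.5, 11237 and 3365 in ACS muscle, so that every ACS library lay above every control. FPKM divide by all counts of a library, mitochondrial ones included, so the sum in ACS replicate 1 is set against a total of which 43.4% was mitochondrial.

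**Figure D3:**
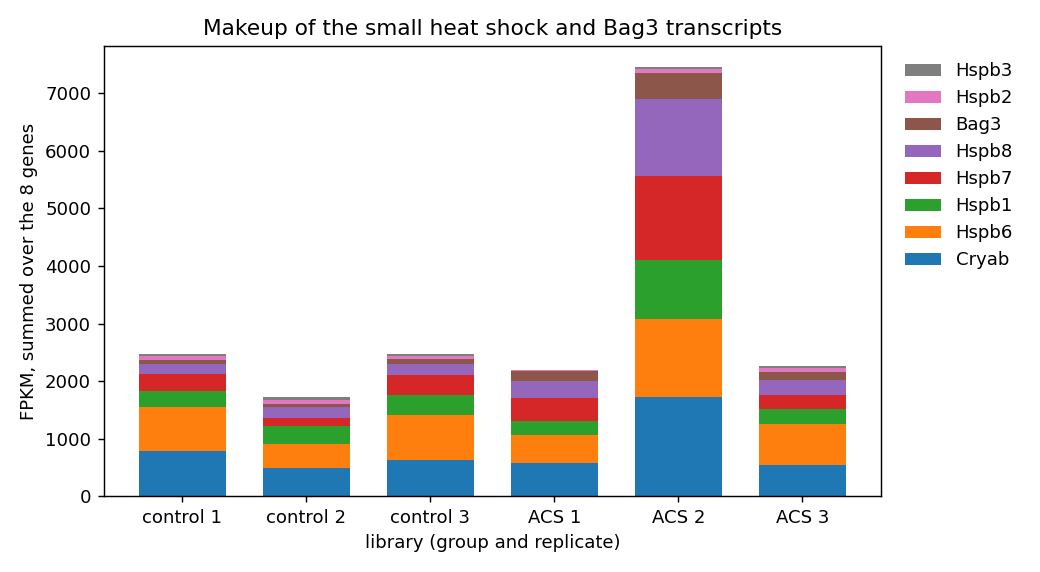
FPKM of the 8 genes stacked for each library (vertical axis, linear, from 0; colours are genes). ACS replicate 2 reaches 7448 FPKM where the other 5 libraries lie between 1725 and 2469, and the Bag3 and Hspb8 bands are a larger part of each ACS bar than of any control bar.

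The share of each gene in this sum does not depend on how libraries are scaled. Bag3 took 2.85%, 2.88% and 3.18% of the sum in control and 7.46%, 6.09% and 6.11% in ACS muscle, so its groups were far apart and each was tight. Hspb8 took 6.99%, 11.6% and 7.91% in control and 13.6%, 17.9% and 12.2% in ACS muscle, again without overlap. For the other 6 genes the shares overlapped. For Bag3 and for Hspb8 the exact permutation test (two-sided) had p = 0.1, the smallest possible, and 0.32 after adjustment over the 8 genes. Without ACS replicate 2 the difference in share was 3.81 percentage points for Bag3, against 3.58 with all libraries, and 4.06 points for Hspb8, against 5.73.

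The mean shares of Hspb6, Cryab, Hspb1, Hspb2 and Hspb3 were smaller in ACS muscle and that of Hspb7 was larger, all within overlapping groups. Hspb1 took 14.0% ± 3.22 in control and 12.3% ± 1.38 in ACS muscle (SD, n = 3). Hspb6 and Cryab took 29.1% ± 4.25 and 28.8% ± 3.10 of the sum in control (SD, n = 3) and 24.0% ± 6.92 and 24.5% ± 1.54 in ACS muscle. Hspb3 took 0.223%, 0.287% and 1.25% in ACS replicates 1, 2 and 3 against 1.12% to 2.94% in control. ACS replicate 3 was the ACS library nearest to the control mean in the shares of Hspb2, Hspb3, Hspb6, Hspb7 and Hspb8.

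Ratios of FPKM within a library were set out for 5 pairs, chosen after the values had been seen. Hspb8 over Hspb1 was 0.636, 0.665 and 0.581 in control and 1.19, 1.28 and 1.05 in ACS muscle. Per gene length, Hspb8 was thus below Hspb1 in each control library and above it in each ACS library. This order rests on the gene lengths, because in CPM Hspb8 lay above Hspb1 in every library. The log2 ratio differed by 0.90, and by 0.83 to 0.98 when any 1 library was left out (two-sided exact permutation p = 0.1, the smallest possible; 0.375 adjusted over the 5 pairs). Hspb8 over Bag3 was 2.46, 4.02 and 2.48 in control and 1.82, 2.94 and 1.99 in ACS muscle. These groups overlapped (exact permutation p = 0.3).

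Hspb2 and Cryab are neighbours transcribed away from each other, with 470 bases between their annotated ends on Rnor 6.0. Hspb2 over Cryab was 0.0910, 0.139 and 0.0860 in control and 0.0264, 0.0428 and 0.111 in ACS muscle. ACS replicates 1 and 2 lay below every control, while replicate 3 lay among them, so the groups overlapped (exact permutation p = 0.3). In ACS replicate 2 Cryab was 3.01 times its control mean in CPM and Hspb2 was 1.27 times. Hspb2 over Hspb3 overlapped as well (exact permutation p = 0.2), as did Hspb7 over Hspb6 (exact permutation p = 0.4).

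**Figure D4:**
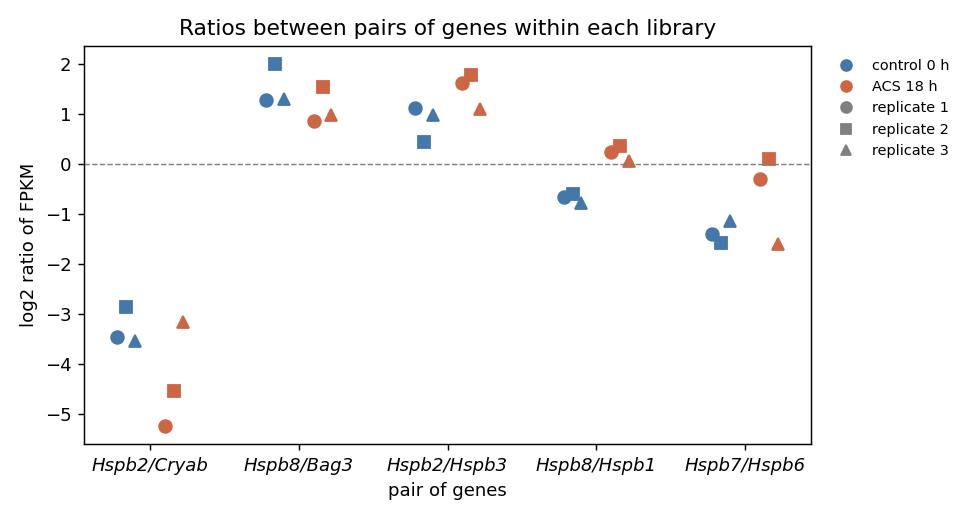
Log2 ratio of FPKM within each library (vertical axis) for 5 pairs of genes, control in blue and ACS in orange, with marker shapes for the replicate number. Only Hspb8/Hspb1 separates the groups, with controls below 0 and ACS libraries above it.

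Likeness of patterns was measured as the root mean square distance between centred log2 CPM (with 0.5 added) over the 6 libraries, where a small value means a similar profile. Among members the closest pairs were Hspb1 and Cryab at 0.280, Hspb6 and Cryab at 0.287 and Hspb8 and Bag3 at 0.373. Ranked among all 12873 genes by nearness to Bag3, Hspb8 stood at place 40, so other genes followed Bag3 more closely. The nearest to Bag3 were Chd7 (0.175), Map1lc3b (0.193) and Fbxl22 (0.201). The nearest to Hspb8 were Hcrtr1, Tmem140 and Hyal1 (0.183, 0.187 and 0.253), and to Cryab Casz1, Spry1 and Nploc4 (0.0892, 0.128 and 0.160).

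For Hspb1 the nearest were Kctd20 (0.120), the unnamed locus AABR07034742.1 and Htr2b, and for Hspb6 Cldn15 (0.151), Lrp3 and Golm1. Hspb7 had no gene as near, with Atoh8 (0.269), Arhgap28 and Lrg1 in front. Hspb2 was followed by P4htm (0.0773), Samd10 and Cacnb3, and Hspb3 by Klhl24 (0.143), the locus AABR07052523.2 and Snrnp25.

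The chaperone-assisted autophagy route, into which Bag3 and Hspb8 feed, had 16 of 17 listed genes tested. By edgeR 1 was higher and 0 lower, and the median log2 fold change was 0.20. Map1lc3b, an LC3 protein of the autophagosome membrane, rose from 72.6, 67.5 and 104 CPM to 348, 559 and 177 CPM (log2 fold change 2.15, SE 0.438, adjusted p = 0.0378; 1.64 and adjusted p = 0.0701 without ACS replicate 2). Gabarapl1, a related autophagosome protein, was at 71.7 ± 12.0 and 294 ± 209 CPM (SD, n = 3 each; edgeR adjusted p = 0.0705). Sqstm1, the p62 receptor, was at 343, 1095 and 487 CPM in ACS muscle against 342 to 495 in control, with only ACS replicate 2 outside that range (adjusted p = 0.423). Gabarapl1 and Sqstm1 were named after their values were seen.

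Of 17 tested Z-disc and filament genes, 1 was higher and 0 lower, with a median log2 fold change of 0.05. Xirp1, an actin-binding protein of damaged myofibrils that works with filamin C, rose from 433, 709.9 and 416 CPM to 8299, 13928 and 3129.8 CPM (log2 fold change 4.02, SE 0.628, edgeR adjusted p = 0.0192). Flnc, the filamin C that the Bag3 complex clears, was at 3231, 2688 and 4616 CPM in control and 4276, 19893 and 5422 CPM in ACS muscle. It thus stood highest in ACS replicate 2, as 7 of the 8 members did (log2 fold change 1.49, adjusted p = 0.200; 0.43 without that library). Flnc was named after its values were seen.

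Of 15 tested Hsp70 and Hsp40 genes, which work with Bag3 in refolding, 0 were higher and 0 lower by edgeR, and the median log2 fold change was 0.51. An unadjusted p under 0.05 was reached by 2, DESeq2 called 2 higher and limma-voom 0. The most abundant per length, Dnajb5, was at 239 ± 34.0 and 402 ± 229 CPM (SD, n = 3 each; adjusted p = 0.302). Hspa1b, the heat-inducible Hsp70, named after its values were seen, was at 3.46, 2.95 and 1.86 CPM in control and 32.2, 3.81 and 1.51 CPM in ACS muscle. Its high library was ACS replicate 1. Hspa1b has a near-identical copy, Hspa1a, listed at 0 in all 6 libraries, so the split of reads between them is uncertain. Hspa8, another Hsp70 gene named after its values were seen, was at only 4.91 ± 0.287 and 4.84 ± 3.26 CPM. Whether reads of Hspa8 were lost or counted elsewhere was not tested, so the level of Hsp70 partners in this list is uncertain.

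No gene of the heat shock factor list passed. Of its 4 tested genes (Hsf1, Hsf2, Hsf4 and Hsbp1) 0 were higher and 0 lower by edgeR. Of these 4, 0 had an unadjusted p under 0.05 or were called by DESeq2 or limma. The most abundant, Hsbp1, which binds heat shock factor 1, was at 96.2 ± 13.5 and 71.1 ± 18.8 CPM (SD, n = 3 each; adjusted p = 0.381). Hsf1 itself, named after its values were seen, was at 41.8 ± 6.30 and 49.3 ± 16.8 CPM (edgeR adjusted p = 0.656). Hsf2 and Hsf4, also named after their values were seen, had log2 fold changes of 0.84 and -0.58 (edgeR adjusted p = 0.222 and 0.366). The 4 tested other BAG genes likewise had no call and no unadjusted p under 0.05, with Bag6 at 242 ± 41.3 and 247 ± 95.1 CPM (SD, n = 3 each). Among other small heat shock genes Hspb9 and Odf1 had no count, Cryaa had 6 counts in ACS replicate 1 alone, and Hspb11 was at 1.40 ± 0.441 and 1.26 ± 0.936 CPM.

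Of 8 tested kinases of small heat shock proteins 0 passed; the most abundant, Dmpk, the partner of Hspb2, was at 672 ± 109 and 540.0 ± 248 CPM (SD, n = 3 each; edgeR adjusted p = 0.652). In that list 1 gene had an unadjusted p under 0.05, and DESeq2 called 2 higher. The 1 gene was Mapk14, a p38 kinase named after its values were seen (log2 fold change 1.37, edgeR adjusted p = 0.0984). It was at 107, 89.8 and 113 CPM in control and 309, 376 and 115 CPM in ACS muscle. Of the 8 kinases 4 had log2 fold changes above 0. The fibre type list had 13 tested genes, 0 passing, and a median log2 fold change of -0.41. In it 4 genes lay below control in every ACS library, where 14.8% of all genes did. They were the slow-fibre genes Myh7, Tnnc1, Myl2 and Myl3 (-0.72, -0.92, -2.07 and -1.46). The slow-fibre genes Tnnt1, Tnni1 and Atp2a2 were below 0 too. The 5 genes above 0 were the fast-fibre Myh1, Tnnt3, Tnni2, Tnnc2 and Mylpf (0.01 to 0.29). All these genes were named after their values were seen. The most abundant gene of the list by FPKM, the fast calcium pump Atp2a1, was at 6118 ± 1406 and 4830.0 ± 1620.2 CPM (log2 fold change -0.34, edgeR adjusted p = 0.652). In CPM, which are not divided by gene length, Myh1 stood higher, at 57520 ± 7887 and 63150 ± 34109 CPM (edgeR adjusted p = 0.904). In the fibre list 3 genes (Tnni1, Tnnc1 and Myl3) had an unadjusted p under 0.05, against 23.5% of all genes. All 3 were toward lower, and DESeq2 called 2 lower.

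Markers of other cells moved with the groups, and their part in these results was not tested. By edgeR 5 of 5 tested neutrophil markers were higher, of 8 listed, while DESeq2 called 5 and limma-voom 0. Their control counts were few (Mmp8 5, 3 and 9), and they needed the ACS libraries to pass the filter on low counts. The count of 5 of 5 is therefore partly set by that filter. The list summed to 1.68 to 6.86 CPM of the library total in control and 271, 25.1 and 76.7 in ACS replicates 1, 2 and 3. The smallest edgeR adjusted p were those of Mmp8, S100a8, Cxcr2 and S100a9. The granule genes Mpo and Elane had at most 8 counts in any library. In the macrophage list 1 of 9 was higher (Itgam), with sums of 52.4 to 89.3 and then 1431, 170.2 and 124. Of these 9, 8 had log2 fold changes above 0, while Adgre1 lay below every control (-1.30, edgeR adjusted p = 0.203). The sum in ACS replicate 1 was mostly Lyz2, with 16601 counts there against 1320 for Ptprc, the next highest. Adgre1, Lyz2 and Ptprc were named after their values were seen. In the red cell list 2 of 5 were higher (Alas2 and Hbb), with sums of 524 to 1468 and then 8044, 1809 and 4396. For each of these lists ACS replicate 1 was the highest library, and for neutrophils and red cells ACS replicate 2 was the lowest of the ACS libraries. The members' CPM were highest in ACS replicate 2 for 7 of the 8, all but Hspb3.

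Among smooth muscle markers, a tissue that also carries Hspb1, Hspb6 and Cryab, 1 of 10 was lower (Lmod1, an actin nucleator, 44.9 ± 13.0 to 10.03 ± 5.15 CPM, SD, n = 3 each). Of 7 fibroblast markers 0 passed and 4 lay above control in every ACS library. The list summed to 797 to 1194 CPM of the library total, without TMM factors, in control. In ACS replicates 1, 2 and 3 these sums were 1761, 2429 and 2843. Col1a2 was listed at 0 in all 6 libraries, and Col1a1, the most abundant, was at 357 ± 215 and 1310.0 ± 478 CPM (edgeR adjusted p = 0.0968). Of 7 endothelial markers 0 passed (Cdh5, adjusted p = 0.320), and of 4 satellite cell markers 1 was higher (Myf5, adjusted p = 0.0420). The other 3 (Pax7, Cdh15 and Chodl, named after their values were seen) did not pass and had log2 fold changes of -0.79, -0.49 and -0.15. Of those lists with 0 passing by edgeR, an unadjusted p under 0.05 was reached by 5 fibroblast and 0 endothelial markers, and DESeq2 called 2 and 0. The skeletal muscle list summed to 94705 to 121432 CPM of the library total, again without TMM factors, in control. In ACS replicates 1, 2 and 3 the sums were 36885, 92992 and 112024. On that scale ACS replicate 2 was just under the control range, which need not hold in TMM-scaled CPM. The total of ACS replicate 1 was 43.4% mitochondrial.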

How the data were processed

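The authors deposited 1 table with whole-number read counts and FPKM per Ensembl gene for 6 libraries of ribosome-depleted total RNA. Per the submitters' processing notes the tools include HISAT2 2.0.4 and StringTie 1.3.0, with build Rnor 6.0. For the program that counted reads, its use of strand and its treatment of multiply mapped reads, the sources used here give nothing. From their values, the deposited FPKM equal counts divided by gene length and library total.

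Counts were filtered with filterByExpr (minimum count 10, total 15), scaled by TMM and tested with edgeR 4.0.16 in R 4.3.3 across all genes. Standard errors come from the F statistic. DESeq2 1.42.0 and limma 3.58.1 gave alternatives, with limma (mean-variance trend) on log2(FPKM + 1) or + 0.1 for genes at 1 FPKM or more in 3 libraries. Figures used matplotlib 3.10.9. The scripts were tested on simulated data. No 2 libraries agreed within sampling noise (chi-square per degree of freedom at least 38.2).

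The members and lists were chosen with earlier results of these data known. Named genes are the 8 members, up to 4 genes that passed in each other list or else its most abundant by FPKM, and the 3 nearest profiles of each member. For 1 listed symbol found in several rows, the row of highest count was used. The result of 1 marker list is not reported here.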

Additional observations from a re-analysis of the deposited data

How the results depend on the processing

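Of the 8 genes 1 was higher by edgeR, and 0 were lower under every setting run. The number higher was 3 with DESeq2, 2 with library quality weights in limma-voom (chosen after seeing the data), and 0 with library totals, limma on log2(FPKM + 1) or + 0.1, a "ji" term in the fit, and without both "ji" libraries. Leaving out 1 library gave 0 to 3 members higher, 0 to 1286 genes higher and 0 to 398 lower, with 0 for each control library (2075, 2063 and 2289 genes at an unadjusted p under 0.05). Over all genes 442 were higher and 91 lower by edgeR. The counts were 345 and 228 with library totals, 1315 and 422 with DESeq2, 262 and 71 with limma-voom, 1059 and 356 with quality weights, 249 and 268 with limma on log2(FPKM + 1), 199 and 131 with log2(FPKM + 0.1), 755 and 153 with no filter, 248 and 32 with the "ji" term and 171 and 30 without those libraries. The cause was not tested. Over 18 alternatives the adjusted p of Bag3 lay between 5.21e-05 and 0.191, past the threshold in 8, and that of Hspb8 between 0.00378 and 0.269, past it in 4.

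With the replicate block 0 members, 442 higher and 63 lower genes passed, and Bag3 had adjusted p = 0.0627. The labels do not say whether the numbers pair the libraries. Same-numbered deviations correlated at -0.066, 0.001 and 0.033, and not every library correlated best with its own number. With 3 libraries per group, such values cannot exclude a shared animal or batch.

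Signs turned for Hspb2 with quality weights (0.0436) and for the following when 1 library was left out: Hspb2 (-0.485 to 0.239, above 0 without ACS replicate 1), the share of Hspb1 (-3.18 to 0.0303 points, above 0 without control replicate 2), Acta1 (-0.601 to 0.103, ACS replicate 1), Hspa1b (-0.0499 to 2.69, ACS replicate 1), Sqstm1 (-0.0305 to 0.934, ACS replicate 2), Hspb11 (-0.954 to 0.104, ACS replicates 2 and 3), Hsf1 (-0.0493 to 0.449, ACS replicate 3) and Bag6 (-0.174 to 0.313, control replicates 2 and 3 and ACS replicates 2 and 3). Hsf1 was at -0.0431 with library totals, -0.125 and -0.137 with limma on FPKM and -0.102 without the "ji" libraries. Bag6 was at -0.237 with library totals, -0.00114 without mitochondrial genes, -0.0687 with limma-voom, -0.369 and -0.378 with limma on FPKM, -0.000862 with no filter, -0.0388 with the replicate block and -0.186 without the "ji" libraries.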
